A study of Homo sapiens with 6 samples.

Results

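The genes described here encode enzymes of purine and pyrimidine nucleotide synthesis, nucleotide salvage and the folate cycle. They were picked by symbol from a list of 36 genes, and all 36 were among the 23024 genes listed in the deposited table. Of these, 35 had a mean of at least 1 FPKM (fragments scaled to gene length and library size) over the 6 libraries and were tested, as were 11152 genes in all. TYMP fell under that level. ADSS1 reached it only through the NC libraries, where it was higher.

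The libraries came from 5637 cells, an established human bladder carcinoma line. One group, sh-RAD51C, comprised 3 libraries of cells that the labels call a RAD51C knockdown; sh is the usual prefix for a short hairpin RNA, and RAD51C is a DNA repair gene. The other group, NC, comprised 3 libraries whose genotype is given as WT; the labels do not spell out NC. RNA of both groups was taken from transfected cells. The labels give no hairpin sequence, do not say whether the knockdown cells were a pool or a clone, and do not state that the libraries of a group were separate cultures, so the p-values reflect only how far these libraries vary, and that variation may be technical.

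Cells build purines stepwise on a ribose phosphate until inosine monophosphate (IMP) is reached, and then branch to AMP and GMP. Pyrimidines are made as a ring first, which is joined to ribose phosphate to give UMP, the precursor of UTP and CTP. The folate cycle supplies the formyl groups of the purine ring and the methyl group of thymidylate. Proliferating cancer cells, including those of epithelial tumours, draw on both routes and on salvage, and MYC is a known activator of many of these genes.

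The knockdown was visible in its target: RAD51C averaged 3.18 ± 0.288 FPKM in sh-RAD51C and 13.8 ± 0.804 FPKM in NC (SD, n = 3 each; log2 fold change -1.83 ± 0.064, SE; limma, Benjamini-Hochberg adjusted p = 7.16e-09). Inferred depth was alike, 37104318 to 38079825 reads in the sh-RAD51C libraries and 36068282 to 37560184 reads in the NC libraries. Of 12 epithelial and urothelial markers, 10 averaged at least 1 FPKM, with a median log2 fold change of 0.11. By limma 5 of these were called higher (EPCAM, KRT7, KRT8, KRT18 and GATA3) and 5 lower (KRT5, KRT17, KRT19, CDH1 and TP63). Over all genes tested, 23.2% were called higher and 26.2% lower. The CDH1 call was kept in 10 of 14 alternative fits. The summed level of the 12 markers was 2805 to 2907 FPKM in sh-RAD51C libraries and 3265 to 3358 FPKM in NC libraries. Abundant keratins contributed most to it. The uroplakin genes UPK2 and UPK3A were at most 0.228 FPKM in any library, so these defining markers of the outermost urothelial cells were near 0. Among markers of other cell types, 0 of 7 endothelial, 3 of 9 fibroblast and 3 of 8 blood cell markers averaged at least 1 FPKM. Their summed levels were 0.36 to 0.501, 56.3 to 57.8 and 89.9 to 94.9 FPKM in sh-RAD51C libraries, against 0.182 to 0.33, 70.5 to 70.9 and 96 to 104 FPKM in NC libraries. The 3 fibroblast markers were COL1A1, THY1 and FBLN1, and FBLN1 gave most of the sum (mean 44.4 FPKM in sh-RAD51C, 55.9 in NC). The 3 blood cell markers were CD14, CD68 and LAPTM5, and LAPTM5 gave most of the sum (mean 89.5 FPKM in sh-RAD51C, 97.7 in NC). THY1 and CD68 were called higher by limma, the others lower. CD14 reached the level for testing only through the NC libraries (mean 0.573 FPKM in sh-RAD51C, 1.57 in NC), which limits what its test can show. The genes COL1A2 (fibroblasts) and PTPRC (leukocytes) were at or near 0 in every library. The part of these marker shifts in the results below was not tested. Libraries of 1 group differed by more than counting noise, most of all sh-RAD51C 1 from the other 2 of its group (chi-square per degree of freedom 12.59 and 14.31, against 3.69 to 6.39 for the other pairs within a group).

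Most of the nucleotide and folate genes were higher in sh-RAD51C cells. Of the 35 tested, 23 rose, 2 fell (ADSS1 and CTPS2) and 10 did not pass the test. The test was limma on log2(FPKM + 1) with Benjamini-Hochberg adjustment over all 11152 genes at 0.05. ADSS1 entered it only through the NC libraries. Among all genes tested, 23.2% were called higher and 26.2% lower, 49.4% in either direction, against 65.7% of the members called higher and 5.71% called lower. The median log2 fold change of the members tested was 0.18, and that of all genes tested was -0.01. The sh-RAD51C libraries lay wholly above the NC libraries for 26 members (27.6% of all genes), wholly below for 2 (30.8% of all genes), and overlapped them for 7. These are bulk measurements, in which fewer cells of a type and less RNA per cell cannot be told apart.

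The shifts were modest in size. UPP1 had the largest rise among the members, 1.7-fold by mean FPKM, and PPAT, CTPS1 and IMPDH1 followed at 1.59-, 1.45- and 1.43-fold. The remaining rises ran down to 1.1-fold for IMPDH2, PNP and UMPS. As a set the members were well expressed: the median of their mean levels was 21.6 FPKM, against 8.71 FPKM for all genes tested, and 29 of 35 lay above that median. The summed level of all 36 was 1191, 1167 and 1132 FPKM in sh-RAD51C 1, 2 and 3, and 992, 987 and 1012 FPKM in NC 1, 2 and 3. Every sh-RAD51C sum was therefore above every NC sum.

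**Figure D1:**
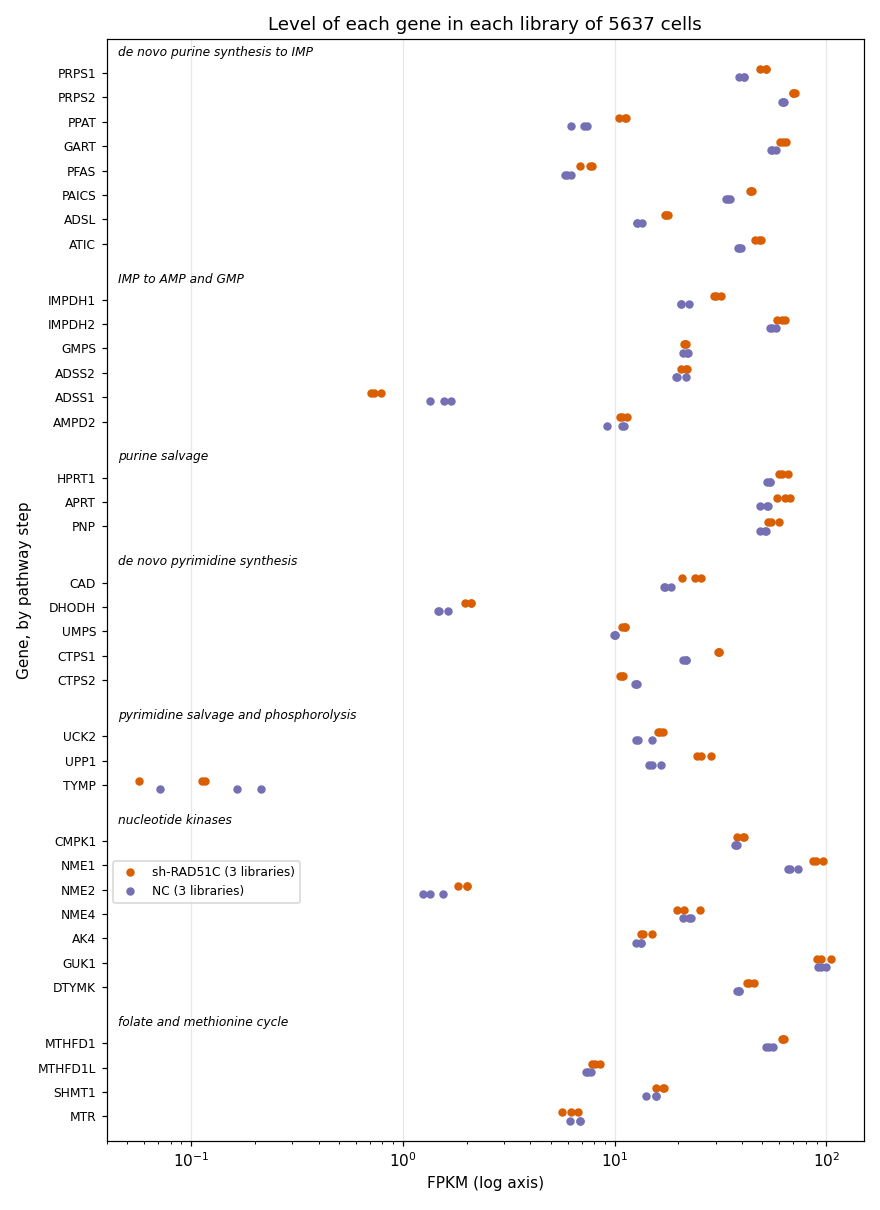
Level of each of the 36 genes in FPKM on a log axis, with 1 point per library, sh-RAD51C above NC in each row and genes grouped by pathway step. In the row of UPP1 the 3 sh-RAD51C points lie from 24.4 to 28.5 FPKM and the 3 NC points from 14.6 to 16.5 FPKM, while TYMP lies under 0.22 FPKM throughout.

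The route from ribose phosphate to IMP rose in full. All 8 genes of that group were called higher, against 23.2% of all genes tested. In all 8 the sh-RAD51C libraries lay wholly above the NC libraries, against 27.6% of all genes tested. The log2 fold changes of the 8 ran from 0.16 to 0.60, with a median of 0.31. The summed level of the 8 genes was 312, 317 and 305 FPKM in sh-RAD51C 1, 2 and 3, and 255, 255 and 264 FPKM in NC 1, 2 and 3.

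PPAT, the amidotransferase of the committed step, moved most within the route. It had 10.5, 11.3 and 11.2 FPKM in sh-RAD51C 1, 2 and 3, and 6.23, 7.2 and 7.38 FPKM in NC 1, 2 and 3. The lowest sh-RAD51C library was well above the highest NC library, and NC 1 was the lowest of all. It rose by 0.60 ± 0.062 on the log2 scale (SE; limma adjusted p = 1.65e-05), and 827 to 1567 inferred reads stood behind each value.

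PAICS, the bifunctional enzyme of carboxylation and of the aspartate-adding step, had 43.5, 44.7 and 44.2 FPKM in sh-RAD51C 1, 2 and 3, and 33.7, 34.3 and 35.3 FPKM in NC 1, 2 and 3. The spread within either group was small beside the gap between them (log2 fold change 0.35 ± 0.036, SE; limma adjusted p = 1.35e-05). ADSL, a lyase used both on the way to IMP and on the way to AMP, had 17.5, 17.9 and 17.3 FPKM in sh-RAD51C and 12.8, 12.8 and 13.5 FPKM in NC. Its groups also stood apart, at a log2 fold change of 0.40 (limma adjusted p = 1.79e-05).

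The other steps moved less. PRPS1 and PRPS2 make the activated ribose phosphate that enters the route. PRPS1 averaged 50.7 ± 2 FPKM in sh-RAD51C and 40.2 ± 1.18 FPKM in NC, and PRPS2 averaged 70 ± 1.01 FPKM in sh-RAD51C and 62.6 ± 0.909 FPKM in NC (SD, n = 3 each). The trifunctional GART rose by 0.16 on the log2 scale, PFAS, a glutamine-using synthetase, by 0.28, and ATIC, which adds the last formyl group and closes the ring, by 0.28. The smallest rise of the route by fold of means was 1.12-fold, shared by PRPS2 and GART, and the largest limma adjusted p was 0.00578, for GART.

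PPAT and PAICS lie head to head on chromosome 4, which places their starts in 1 short stretch of DNA. In GENCODE release 29 on GRCh38, PPAT runs from 56393362 to 56435615 on the minus strand and PAICS from 56435741 to 56464579 on the plus strand. The RefSeq promoter table (GRCh38.p14) puts the PPAT start at 56435615 and the nearest PAICS start at 56435752, leaving 136 bases between them, of which 75% are G or C. Those bases are shown because both genes rose and both start from them; they hold 0 copies of CACGTG, the E-box letters that MYC with MAX and other factors of that family bind.
PPAT to PAICS, chr4:56435616-56435751, plus strand: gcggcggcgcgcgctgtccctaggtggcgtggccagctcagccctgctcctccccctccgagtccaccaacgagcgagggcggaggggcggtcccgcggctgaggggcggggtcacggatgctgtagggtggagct

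The promoter windows of the set were read for E-box letters because MYC rose in these cells. MYC, a transcription factor, averaged 50.4 ± 1.61 FPKM in sh-RAD51C and 31 ± 1.11 FPKM in NC (SD, n = 3 each; log2 fold change 0.68, limma adjusted p = 2.34e-07). ATF4, a factor known to induce serine and folate enzymes, had a log2 fold change of 0.05 (95% interval -0.04 to 0.14) and was not called (limma adjusted p = 0.33). RefSeq windows of 300 bases, 250 before and 50 after a start, were found for 34 of the 36 members; the others were IMPDH2 and ADSL. CACGTG, which reads the same on both strands, was in a window of 9 of these 34 genes (26.5%). The shares over all were 8.77% of 27305 genes and 7.26% of 35116 windows. Members had more windows per gene (59 for 34) than all genes (35116 for 27305), which favours a match per gene. The same bases count for both PPAT and PAICS, and the 27305 genes are not limited to those tested. TGATGNAA, a form of the ATF4 element searched on both strands, was in 1 (MTHFD1L), or 2.94%, against 4.46% of genes and 3.62% of windows; CACGTG does not occur within TGATGNAA. Of the 9 members with CACGTG, 6 rose, and of the 25 without it, 15 rose. A match is a description of letters, not of binding. Only the RNA of MYC and ATF4 was measured, and the part of either factor in these changes was not tested.

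The E-box stretches are shown in capitals with 12 bases on either side, on the strand of the gene and in GRCh38.p14, for 4 genes that rose and, for comparison, 3 that did not pass the test. In PPAT the letters begin 182 bases before its start; the same bases lie 40 bases after the PAICS start on the other strand. In ATIC they begin 46, in MTHFD1 15 and in DHODH 159 bases before the start. In the genes that did not pass the test they begin 77 (AMPD2), 93 (AK4) and 154 bases (MTHFD1L) before it. Each distance is from the start of the RefSeq window that held the match, and a gene can have several starts. In ATIC, MTHFD1, AMPD2 and MTHFD1L the letters lie inside the span that GENCODE gives the gene, and in DHODH they meet its first base. ATIC and AK4 had another match after a start, and the only match of NME1 and of PAICS lay after a start.
PPAT (rose), chr4:56435780-56435809, minus strand: aacggagatttcCACGTGcagcaaatacag
ATIC (rose), chr2:215312001-215312030, plus strand: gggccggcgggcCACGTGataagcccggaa
MTHFD1 (rose), chr14:64388326-64388355, plus strand: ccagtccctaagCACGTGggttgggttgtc
DHODH (rose), chr16:72008573-72008602, plus strand: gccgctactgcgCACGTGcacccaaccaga
AMPD2 (not called), chr1:109619748-109619777, plus strand: gtggtggctgccCACGTGgcgcccaggaag
AK4 (not called), chr1:65147447-65147476, plus strand: ggtcgcagggagCACGTGggccaggcaggc
MTHFD1L (not called), chr6:150866320-150866349, plus strand: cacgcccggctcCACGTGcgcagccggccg

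Beyond IMP the pattern split. Of the 6 genes that turn IMP into AMP or GMP or back, 2 rose (IMPDH1 and IMPDH2) and 1 fell (ADSS1). The other 3 (GMPS, ADSS2 and AMPD2) did not pass the test. The median log2 fold change of the 6 was 0.07. These shares, 33.3% higher and 16.7% lower, stand beside 23.2% and 26.2% of all genes tested.

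IMPDH1 and IMPDH2 encode the dehydrogenases that commit IMP to GMP. IMPDH1 had 30.1, 32 and 29.5 FPKM in sh-RAD51C 1, 2 and 3, and 20.7, 20.7 and 22.4 FPKM in NC 1, 2 and 3, a rise of 0.50 ± 0.046 on the log2 scale (SE; limma adjusted p = 6.24e-06). IMPDH2, the more abundant of the pair, had 64, 61.9 and 58.5 FPKM in sh-RAD51C and 54.1, 57.9 and 55.5 FPKM in NC. The gap was wide for IMPDH1, whereas the lowest sh-RAD51C and the highest NC library of IMPDH2 nearly met. The IMPDH2 call (limma adjusted p = 0.02) was lost in 7 of 14 alternatives, the omission of any of 4 single libraries among them (NC 1, NC 3, sh-RAD51C 1 or sh-RAD51C 2), with a limma adjusted p from 0.00894 to 0.087 over all 14.

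GMPS, which completes GMP, was not called, at 21.5 ± 0.274 FPKM in sh-RAD51C and 21.7 ± 0.613 FPKM in NC (SD, n = 3 each; 95% interval of the log2 fold change -0.10 to 0.07). ADSS2, the widely expressed synthetase of the AMP branch, had 21.8, 20.6 and 22.1 FPKM in sh-RAD51C and 19.8, 19.5 and 21.8 FPKM in NC. These groups overlapped, and the log2 fold change of 0.08 (95% interval -0.03 to 0.19) did not pass (limma adjusted p = 0.215). Its muscle-type counterpart ADSS1 was scarce and lower, with 0.79, 0.704 and 0.734 FPKM in sh-RAD51C and 1.69, 1.34 and 1.57 FPKM in NC. ADSS1 reached the level for testing only through the NC libraries, which limits what its test can show. On the log2(FPKM + 1) scale it fell by 0.54 ± 0.074 (SE; limma adjusted p = 0.000131). That scale compresses so low a gene: the log2 fold change was -0.95 with a pseudocount of 0.1 and -1.03 with voom on the inferred reads, of which there were 59 to 68 per sh-RAD51C library and 114 to 138 per NC library. AMPD2, which deaminates AMP back to IMP, averaged 11 ± 0.384 FPKM in sh-RAD51C and 10.4 ± 1.05 FPKM in NC, with overlapping groups (limma adjusted p = 0.413).

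Purine salvage rose as well. All 3 of its genes were called higher (against 23.2% of all genes tested), with log2 fold changes from 0.14 to 0.29. HPRT1, which recovers hypoxanthine and guanine, averaged 62.7 ± 3.27 FPKM in sh-RAD51C and 53.8 ± 1.04 FPKM in NC. APRT, which recovers adenine, averaged 63.2 ± 4.35 FPKM in sh-RAD51C and 51.5 ± 2.38 FPKM in NC (SD, n = 3 each). In both genes sh-RAD51C 1 was the highest library. PNP, the phosphorylase that frees purine bases, had a log2 fold change of 0.14 (limma adjusted p = 0.0315), and that call was lost in 6 of 14 alternatives (limma adjusted p from 0.0147 to 0.191), among them the omission of NC 1, sh-RAD51C 1 or sh-RAD51C 2.

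**Figure D2:**
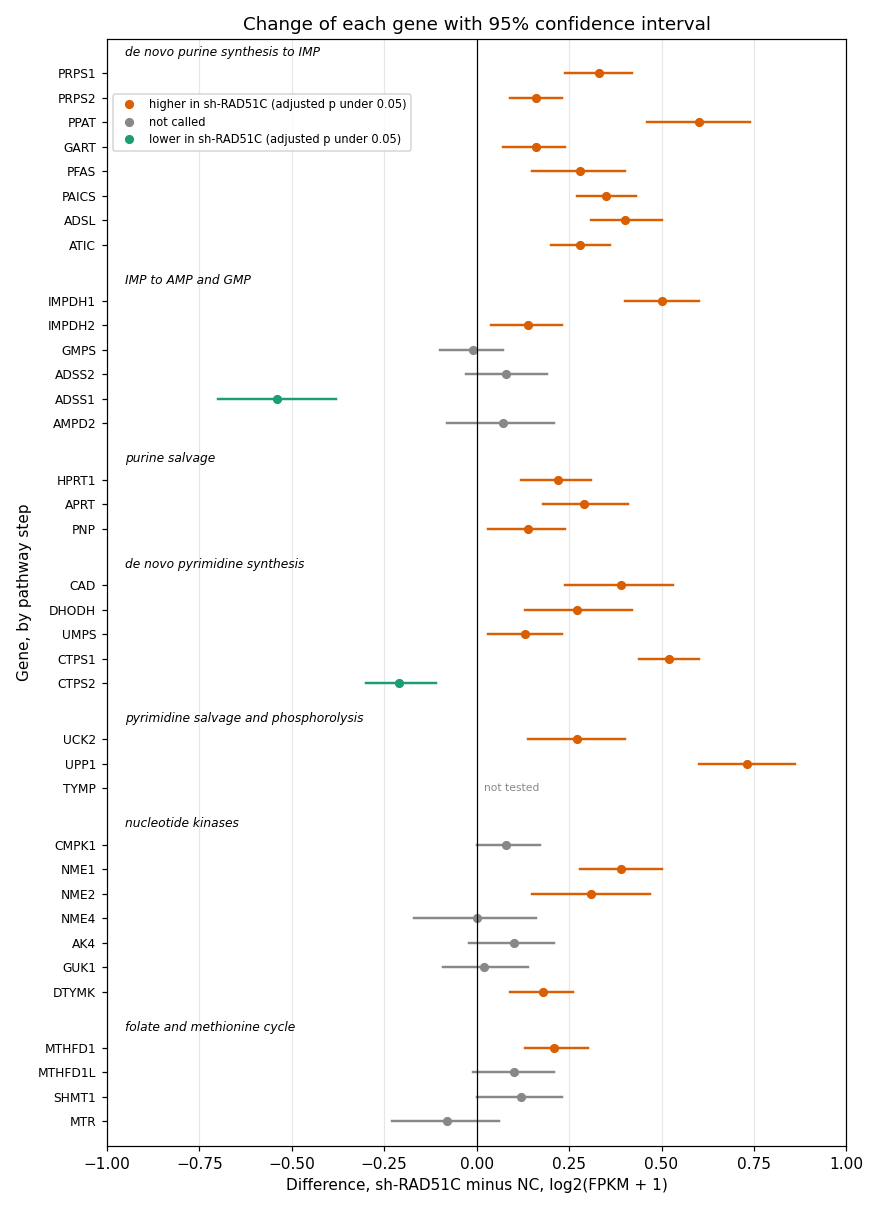
Difference between sh-RAD51C and NC in log2(FPKM + 1) for each gene (point) with its 95% confidence interval from limma (line), grouped by pathway step and coloured by the call. All 8 genes of the route to IMP lie right of 0, while IMPDH1 (0.50) and ADSS1 (-0.54) mark the ends of the AMP and GMP group.

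In pyrimidine synthesis 4 of 5 genes rose (80%) and 1 fell (20%), against 23.2% and 26.2% of all genes tested. CAD, the multifunctional enzyme that opens the route, had 20.8, 25.5 and 24 FPKM in sh-RAD51C 1, 2 and 3, and 17.4, 17.1 and 18.5 FPKM in NC 1, 2 and 3. All sh-RAD51C values were above all NC values, but sh-RAD51C 1 was closer to NC than the other 2 were; the log2 fold change was 0.39 ± 0.065 (SE; limma adjusted p = 0.000529). DHODH, the mitochondrial dehydrogenase of the route, was scarce, with 1.97, 2.09 and 2.09 FPKM in sh-RAD51C and 1.46, 1.48 and 1.63 FPKM in NC. It was called at a log2 fold change of 0.27 (limma adjusted p = 0.00457), which was 0.41 with a pseudocount of 0.1 and 0.43 with voom on its 280 to 422 inferred reads a library. UMPS, which yields UMP, averaged 11 ± 0.256 FPKM in sh-RAD51C and 10 ± 0.0119 FPKM in NC (SD, n = 3 each; limma adjusted p = 0.0283). That call was lost without any of NC 1, NC 2, NC 3, sh-RAD51C 2 or sh-RAD51C 3, and the limma adjusted p ran from 0.0161 to 0.0807 over 14 alternatives.

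The CTP synthases, which aminate UTP, moved in opposite directions. CTPS1 had 30.9, 31.3 and 31.2 FPKM in sh-RAD51C 1, 2 and 3, and 21.7, 21 and 21.7 FPKM in NC 1, 2 and 3. CTPS2 had 10.9, 11 and 10.6 FPKM in sh-RAD51C and 12.6, 12.5 and 12.8 FPKM in NC. Both genes had tight groups that did not overlap, CTPS1 higher and CTPS2 lower in sh-RAD51C. The log2 fold changes were 0.52 ± 0.036 for CTPS1 (SE; limma adjusted p = 8.94e-07) and -0.21 ± 0.043 for CTPS2 (SE; limma adjusted p = 0.00196), and neither call was lost in any of 14 alternatives.

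Of the salvage and phosphorolysis genes, both that were tested rose, against 23.2% of all genes tested. UPP1, the uridine phosphorylase, had 25.7, 28.5 and 24.4 FPKM in sh-RAD51C 1, 2 and 3, and 14.6, 15 and 16.5 FPKM in NC 1, 2 and 3. It rose by 0.73 ± 0.06 on the log2 scale (SE; limma adjusted p = 2.88e-06), more than any other member. UCK2, a uridine and cytidine kinase, averaged 16.4 ± 0.429 FPKM in sh-RAD51C and 13.5 ± 1.26 FPKM in NC (SD, n = 3 each; log2 fold change 0.27, limma adjusted p = 0.00319). TYMP, the thymidine phosphorylase, was not tested: it had 0.113, 0.116 and 0.0566 FPKM in sh-RAD51C and 0.164, 0.215 and 0.0716 FPKM in NC, with overlapping groups.

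Among the kinases that raise nucleotides to di- and triphosphates, 3 of 7 rose (42.9%, against 23.2% of all genes tested). The other 4 did not pass the test. NME1, a cytosolic nucleoside diphosphate kinase, had 96.4, 86.6 and 89.3 FPKM in sh-RAD51C 1, 2 and 3, and 67.8, 66 and 73.5 FPKM in NC 1, 2 and 3 (log2 fold change 0.39, limma adjusted p = 7.76e-05). Its paralog NME2 had 2.01, 1.83 and 2.02 FPKM in sh-RAD51C and 1.55, 1.25 and 1.35 FPKM in NC. The groups stood apart in both, but NME2 rested on 47 to 77 inferred reads a library and lost its call with voom on inferred reads (limma adjusted p = 0.0505, in a range from 0.00138), where its log2 fold change was 0.50, against 0.31 on the log2(FPKM + 1) scale. The genes are neighbouring paralogs on chromosome 17, joined by the read-through gene NME1-NME2, which covers 18.6% of the exon bases of NME1 and 22.9% of those of NME2 in GENCODE. The split of reads between them is therefore uncertain.

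DTYMK, which phosphorylates thymidylate, averaged 43.7 ± 1.75 FPKM in sh-RAD51C and 38.5 ± 0.564 FPKM in NC (SD, n = 3 each; log2 fold change 0.18, limma adjusted p = 0.00274). CMPK1, the UMP and CMP kinase, and AK4, a mitochondrial adenylate kinase, had non-overlapping groups but were not called, at log2 fold changes of 0.08 and 0.10 (limma adjusted p = 0.104 and 0.154). CMPK1 was called without sh-RAD51C 2 (limma adjusted p = 0.042). GUK1, the GMP kinase and the most abundant member, averaged 96.8 ± 7.41 FPKM in sh-RAD51C and 95 ± 3.99 FPKM in NC. NME4, the mitochondrial diphosphate kinase, averaged 22.1 ± 2.89 FPKM in sh-RAD51C and 22.1 ± 1.01 FPKM in NC. The 95% intervals of their log2 fold changes were -0.09 to 0.14 for GUK1 and -0.17 to 0.16 for NME4, and in both sh-RAD51C 1 was the highest library of its group.

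In the folate and methionine cycle 1 of 4 genes rose (25%, near the 23.2% of all genes tested). MTHFD1, the cytosolic trifunctional enzyme that makes the formyl donor of purine synthesis, had 63.2, 62.6 and 61.8 FPKM in sh-RAD51C 1, 2 and 3, and 55.8, 51.8 and 53.7 FPKM in NC 1, 2 and 3. The groups did not overlap (log2 fold change 0.21 ± 0.037, SE; limma adjusted p = 0.000629). MTHFD1L, the mitochondrial formate-producing enzyme, had 7.85, 8.52 and 8.08 FPKM in sh-RAD51C and 7.32, 7.51 and 7.75 FPKM in NC. These values did not overlap either, yet the log2 fold change of 0.10 (95% interval -0.01 to 0.21) was not called (limma adjusted p = 0.123), though it was with voom on inferred reads (limma adjusted p = 0.0494). SHMT1, the cytosolic serine hydroxymethyltransferase, had 17.1, 15.7 and 16.9 FPKM in sh-RAD51C and 14.1, 15.7 and 15.7 FPKM in NC, and was not called (limma adjusted p = 0.0843), except without sh-RAD51C 2 (limma adjusted p = 0.0471). MTR, the methionine synthase, averaged 6.2 ± 0.519 FPKM in sh-RAD51C and 6.62 ± 0.396 FPKM in NC (SD, n = 3 each), with overlapping groups.

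Enzymes of like function did not always move alike. The log2 ratio between members of 8 pairs was compared over the libraries by exact permutation (two-sided). With 3 libraries in each group the smallest p is 0.1, so no pair could pass 0.05. CTPS1 over CTPS2 stood at 1.44 ± 0.03 in sh-RAD51C and 0.72 ± 0.02 in NC (SD, n = 3 each), a difference of 0.73 on the log2 scale. ADSS2 over ADSS1 stood at 3.69 ± 0.04 in sh-RAD51C and 3.08 ± 0.11 in NC. The difference was 0.62, and 1.03 with a pseudocount of 0.1. Here too, ADSS1 reached the level for testing only through the NC libraries. IMPDH1 over IMPDH2 was -0.99 ± 0.07 in sh-RAD51C and -1.35 ± 0.08 in NC, so the scarcer IMPDH1 gained on IMPDH2 by 0.36. PRPS1 over PRPS2 differed by 0.17 and SHMT1 over SHMT2 by 0.14. The SHMT1 to SHMT2 groups nearly met, at -1.57 in sh-RAD51C 2 and -1.58 in NC 2, and neither gene was called. In these 5 pairs the groups did not overlap and the exact two-sided permutation p was 0.1 (0.16 after adjustment over the 8 pairs). The ratios of NME1 to NME2, MTHFD1 to MTHFD1L and MTHFD1 to MTHFD2 overlapped between groups and differed by 0.08, 0.11 and -0.02 (exact permutation p = 0.4, 0.2 and 0.6).

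**Figure D3:**
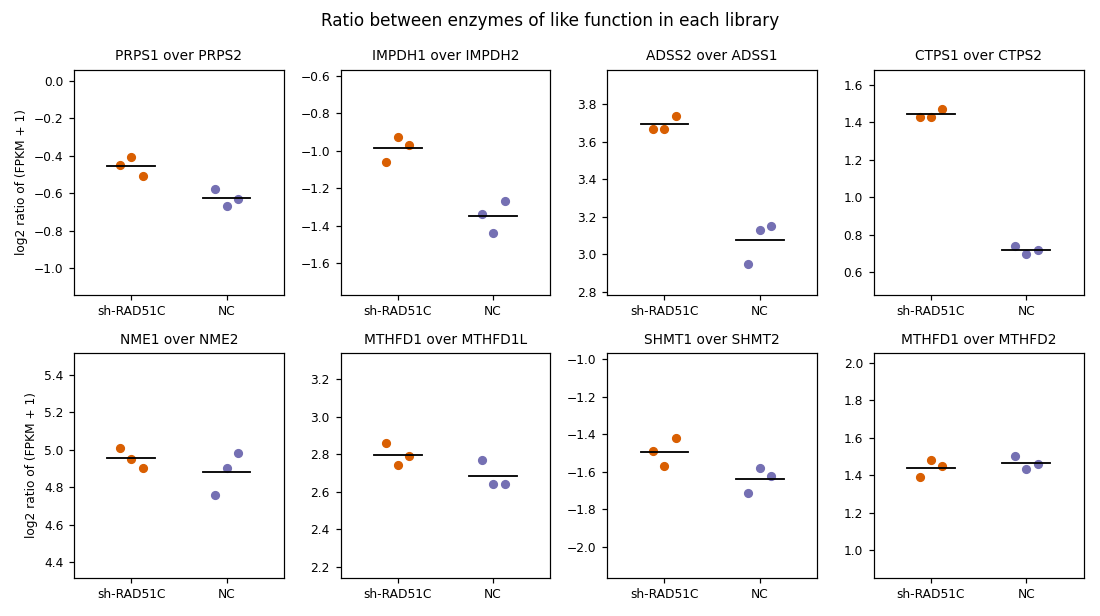
Log2 ratio of FPKM + 1 between the genes of each of 8 pairs, with 1 point per library and a bar at the group mean, sh-RAD51C left of NC; all panels have the same height on the log2 scale. The CTPS1 to CTPS2 panel shows the widest gap, 1.44 in sh-RAD51C and 0.72 in NC, and the MTHFD1 to MTHFD2 panel the narrowest.

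Other genes of nucleotide and folate metabolism moved less as a set. Of 76 such genes outside the members, 55 were tested, of which 17 were called higher (30.9%), 6 lower (10.9%) and 32 not called, with a median log2 fold change of 0.04. The background over all genes was 23.2% higher and 26.2% lower, as above.

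Deoxynucleotide supply had 3 of 14 genes higher (21.4%, near the 23.2% of all genes tested). RRM2, the cell cycle-regulated subunit of ribonucleotide reductase, had 102, 102 and 100 FPKM in sh-RAD51C and 87.3, 88.7 and 87.8 FPKM in NC (log2 fold change 0.20, limma adjusted p = 0.000313). Its partner RRM1, thymidylate synthase TYMS and thymidine kinase TK1 were not called, with log2 fold changes of -0.07, 0.02 and -0.04; TYMS changed sign with quantile normalization. The other 2 that rose, named after their values were seen, were DCTPP1, a nucleotide pyrophosphatase, at 0.42 and the cytidine deaminase CDA at 0.49.

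Mitochondrial folate, folate uptake and serine synthesis had 7 of 14 tested genes higher (50%) and 2 lower (14.3%), against 23.2% and 26.2% of all genes. MTHFD2, the mitochondrial dehydrogenase and cyclohydrolase, averaged 22.4 ± 0.983 FPKM in sh-RAD51C and 18.8 ± 0.253 FPKM in NC (SD, n = 3 each; limma adjusted p = 0.00079). SHMT2, the mitochondrial hydroxymethyltransferase, averaged 48.4 ± 1.38 FPKM in sh-RAD51C and 49.2 ± 0.937 FPKM in NC and was not called (95% interval of the log2 fold change -0.10 to 0.06). Among genes named after their values were seen, the folate carriers SLC19A1 and SLC25A32 rose by 0.49 and 0.41 on the log2 scale, while PHGDH, the first enzyme of serine synthesis, fell to 23.9 ± 0.374 FPKM in sh-RAD51C, against 32.8 ± 0.88 FPKM in NC (SD, n = 3 each; limma adjusted p = 3.36e-06).

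The list of other salvage and breakdown genes held NT5E and ADA, the largest rise and the largest fall of the 55 genes. In it 4 of 17 tested genes were higher (23.5%) and 3 lower (17.6%), against 23.2% and 26.2% of all genes tested. NT5E, the surface nucleotidase that makes adenosine from AMP, had 42.6, 45.8 and 43.7 FPKM in sh-RAD51C 1, 2 and 3, and 17.3, 16.9 and 23 FPKM in NC 1, 2 and 3 (log2 fold change 1.18, limma adjusted p = 1.67e-06). ADA, which deaminates adenosine, had 9.69, 8.12 and 7.69 FPKM in sh-RAD51C and 13, 15.6 and 13.3 FPKM in NC (log2 fold change -0.66, limma adjusted p = 7.01e-05). The groups did not overlap for either gene, NT5E being higher and ADA lower in sh-RAD51C. The other nucleotide kinases had 2 of 7 genes higher (28.6%) and 0 lower, and the nucleoside transporters 1 of 3 higher (33.3%) and 0 lower. Each of these 3 is a gene named after its values were seen: AK6 (0.27), NME7 (0.40) and the equilibrative transporter SLC29A1 (0.45).

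**Figure D4:**
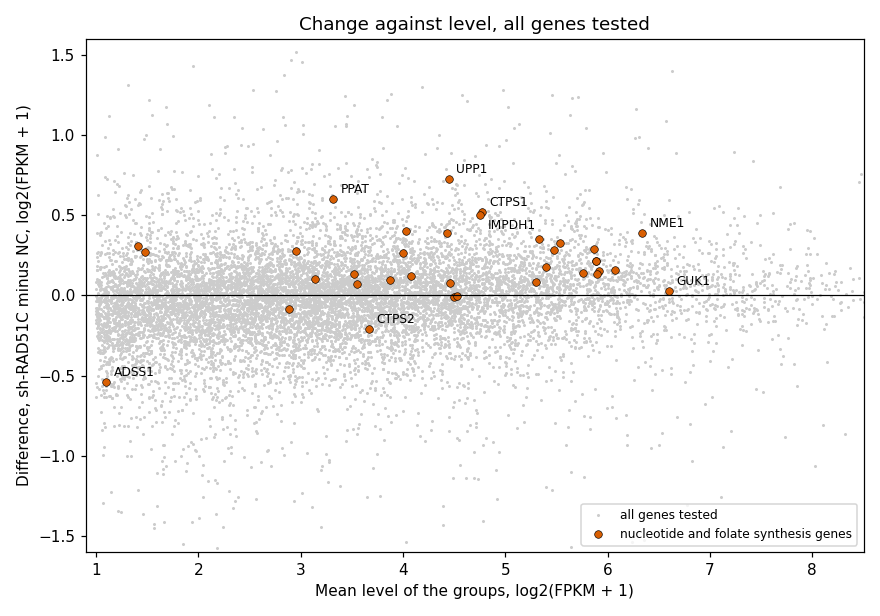
Difference between sh-RAD51C and NC against the mean level of the groups, both in log2(FPKM + 1), for all genes tested (grey) and the 35 members tested (orange); 178 genes lie outside the plotted range. Most members lie above 0, with UPP1 (0.73) at the top and ADSS1 (-0.54) at the lower left.

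The libraries of a group did not rank the same way for every member. Among the 23 genes that rose, sh-RAD51C 2 was the highest of its group for 12, sh-RAD51C 1 for 7 and sh-RAD51C 3 for 4. NC 3 was the highest of its group for 15 of them. The median member stood 0.19, 0.20 and 0.15 above its NC mean on the log2 scale in sh-RAD51C 1, 2 and 3, while the median of all genes tested stood at -0.02, -0.01 and 0.00. Without sh-RAD51C 1, the library that stood apart, 21 members were called higher and 2 lower.

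Exons of 14 of the 36 members overlap those of another gene in GENCODE, and no source used here gives the strand setting of the counting. Besides NME1 and NME2, the largest shares were 20.7% of the exon bases of TYMP and 18.9% of those of ADSL. Values of such genes may include reads of their neighbours.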

How the data were processed

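The authors deposited 1 FPKM value per gene symbol and library. The submitters' processing notes list the build hg38 and the tools R 3.2.0 and DESeq2, giving no role for either. Which aligner, counter, strand setting and annotation were used is not given in the sources used here. Sample columns, 6 in number, were matched by title, and 0 were left unused.

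The 36 members, the other gene lists and the pairs were chosen with earlier results of these data known. The 11152 genes averaging 1 FPKM or more were fitted as log2(FPKM + 1) under R 4.3.3 by limma 3.58.1 (empirical Bayes moderation with a mean-variance trend, group as the only term), with Benjamini-Hochberg adjustment over all of them; a call is an adjusted p under 0.05. Fold changes on this scale understate those of low genes.

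Since FPKM values came in steps fixed by a gene's length and a library's total, reads were inferred (whole within 2.5e-06 for 100.0% of genes kept); they describe depth and entered only the voom alternative. Values in every library are given for members called with an absolute log2 fold change of at least 0.5, for chosen branch-point enzymes and for uncalled partners of a called paralog; values of other members were added after they were seen. The value of 1 gene of the deoxynucleotide list is not reported here. Alternatives covered the pseudocount, filter, scaling, variance model, replicate block, voom and the omission of each library. Pairs, summaries and motif searches used scipy 1.17.1, pandas 2.3.3 and numpy 2.4.6 under Python 3.11.15.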

Additional observations from a re-analysis of the deposited data

How the results depend on the processing

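Of 25 members called, 21 kept their call in every alternative they entered; IMPDH2, PNP, UMPS and NME2 did not. Of members not called, CMPK1 and SHMT1 gained a call without sh-RAD51C 2, and MTHFD1L with voom. Leaving out single libraries gave 20 to 22 members higher and 2 lower; their median log2 fold change ran from 0.16 to 0.20, and it left 3 to 6 of the other pathway genes lower. Quantile normalization gave a median of 0.15 and 3 other pathway genes lower. At a mean of at least 5 FPKM, 1 member was lower, since ADSS1 was no longer tested, and 1859 of all genes were lower, since fewer were tested. Genes not called that changed sign did so near 0: over single omissions GMPS ran from -0.03 to 0.0035, AMPD2 from -0.01 to 0.11, NME4 from -0.10 to 0.07 and GUK1 from -0.04 to 0.07 (log2 fold change). NME4 was 0.01 with median-ratio scaling, and TYMS was -0.01 with quantile normalization. The ratio of NME1 to NME2 differed by -0.08 with a pseudocount of 0.1, and that of MTHFD1 to MTHFD2 by -0.04 to 0.003 over single omissions; the cause was not tested. With the replicate number as a block, 23 members were higher and 2 lower, and 2601 of all genes were higher and 2968 lower. Same-numbered libraries shared little beyond a number (correlations of deviations 0.19, 0.03 and 0.09), and sh-RAD51C 2 correlated best with NC 3 (0.11). Depth limits TYMP, ADSS1 and NME2 most.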

Other observations

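Among pathway genes under the level needed for testing, ALDH1L1 and AMT were picked after their values were seen, and no test was made. ALDH1L1, a cytosolic folate dehydrogenase, had 0.326, 0.269 and 0.27 FPKM in sh-RAD51C 1, 2 and 3, and 0.89, 1.01 and 0.654 FPKM in NC 1, 2 and 3. AMT, the aminomethyltransferase of the glycine cleavage system, had 0.237, 0.351 and 0.369 FPKM in sh-RAD51C and 0.541, 0.774 and 0.813 FPKM in NC. For both genes all sh-RAD51C values lay under all NC values, which held for 30.8% of all genes tested. The glycine cleavage gene GCSH was tested and called higher (log2 fold change 0.35, limma adjusted p = 0.000272). GLDC of the same system was under the level for testing, with overlapping groups.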
